A study of Mus musculus with 12 samples.

Results

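The genes that encode and regulate the thiazide-sensitive NaCl cotransporter (NCC) of the distal convoluted tubule were followed in whole-kidney RNA of mice given a salt-inducible kinase (SIK) inhibitor. These 10 of the 55401 genes in the expression tables were taken by name: Slc12a3, Wnk1, Wnk4, Stk39, Oxsr1, Klhl3, Cul3, Trpm6, Pvalb and Kcnj10. The animals were male C57BL6 mice, 8 weeks old by the study's description. One group of 6 received a single intraperitoneal injection of vehicle, 15% 2-Hydroxypropyl-beta-cyclodextrin, and the other group of 6 received SK-124, which the study describes as a selective inhibitor of SIK2 and SIK3, at 40 mg/kg. The study gives no separate time of collection for these kidneys. Each library was made from the whole kidney of 1 mouse, so these transcripts came from every cell type of the organ, and fewer distal convoluted tubule cells could not be told apart from less RNA per cell.

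NCC, encoded by Slc12a3, sits in the apical membrane of distal convoluted tubule cells, reabsorbs sodium and chloride, and is the target of thiazide diuretics. The WNK kinases phosphorylate and activate the kinases SPAK (Stk39) and OSR1 (Oxsr1), which phosphorylate and activate NCC, while the ubiquitin ligase formed by KLHL3 and CUL3 marks WNK kinases for degradation. The same segment reabsorbs magnesium through the channel TRPM6, buffers calcium with parvalbumin, and holds the basolateral potassium channel Kir4.1 (Kcnj10), through which plasma potassium acts on the WNK kinases. Most regulation of NCC is by phosphorylation, which RNA does not show.

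The main result was opposite for the WNK kinases: Wnk1 rose and Wnk4 fell with SK-124, while NCC itself and its direct activating kinases did not pass the test. Expression was compared as CPM (counts scaled to a common library total) normalized by TMM, an edgeR method that corrects for differences in library composition, and a gene was called at an FDR (Benjamini-Hochberg adjusted p over all genes tested, edgeR's quasi-likelihood test) under 0.05. All 10 genes passed the filter on low counts. Of these, 1 was higher and 1 was lower, and 8 were not called, beside 24.4% of the 14159 genes tested that were called in either direction, 10.8% higher and 13.5% lower. The 2 called genes were also the 2 of 10 whose values did not overlap between the groups, beside 13.0% of all genes tested. The share of these genes that moved was therefore near that of all genes. Their median log2 fold change was 0.04, and that of all genes tested was -0.0050.

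Library totals ran from 19244227 to 19771802 expected counts. The 10 most counted genes took 39.9 to 43.2% of the counts in vehicle mice, 44.4 to 46.8% in SK-124 mice 1 to 3 and 38.6 to 40.2% in SK-124 mice 4 to 6, and no label names a batch. The results for Wnk1 and Wnk4 are therefore also given with SK-124 mice 1 to 3 left out and with only those 3 SK-124 mice.

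**Figure D1:**
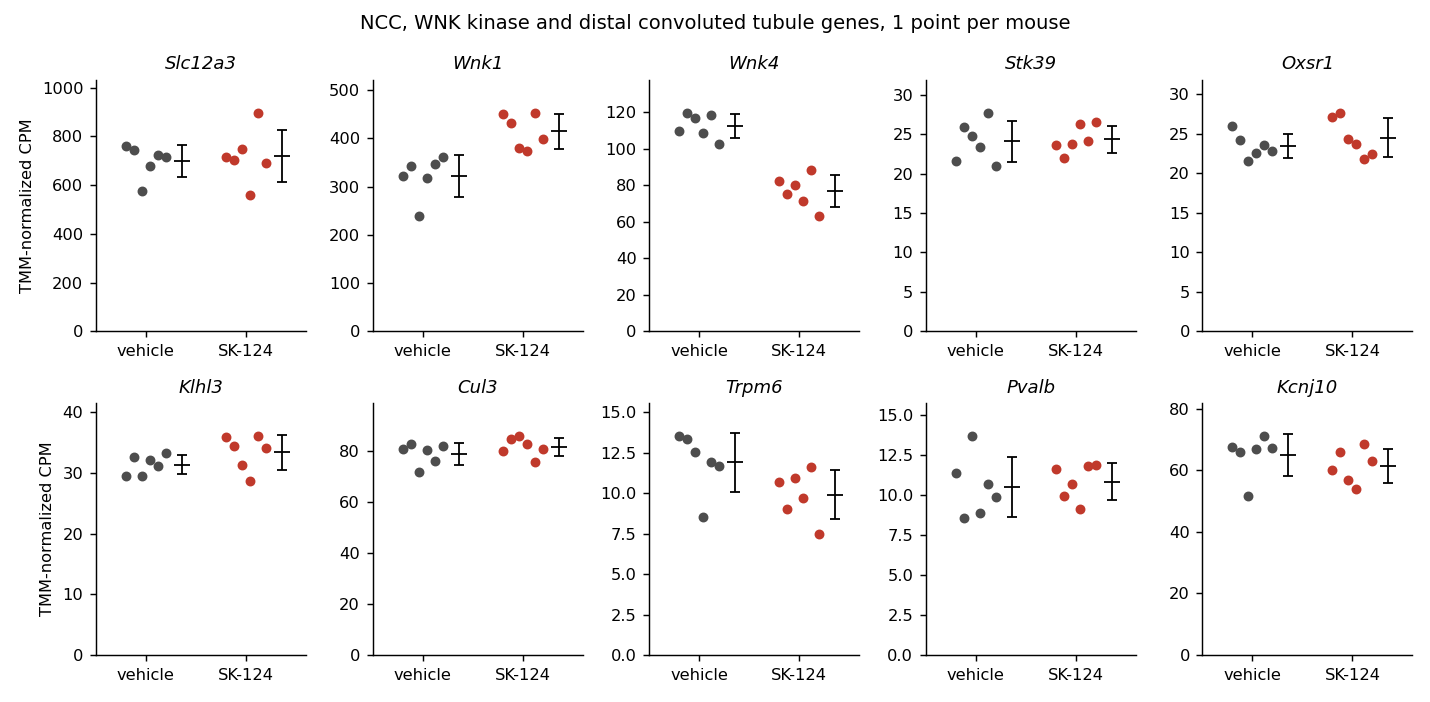
TMM-normalized CPM of each of the 10 genes (vertical axes start at 0 and differ between panels) in the 6 vehicle (grey) and 6 SK-124 (red) mice, 1 point per mouse, with the mean and SD beside each group. The groups are apart for Wnk1, where SK-124 mice start at 373 CPM and vehicle mice end at 361 CPM, and for Wnk4, and overlap for the other 8 genes.

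Slc12a3 (ENSMUSG00000031766.4, chr8:94329201-94366214, plus strand, GRCm38) ran from 576 to 761 CPM in vehicle mice, with a median of 719. In SK-124 mice it ran from 561 to 898 CPM, with a median of 710. The treated group spanned the whole vehicle range, with 1 mouse above and 1 mouse below every vehicle mouse. The log2 fold change was 0.04 with a standard error of 0.09 (95% interval -0.15 to 0.24, FDR 0.791, n = 6 per group). These values rest on 11275 to 17930 counts per mouse.

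The first member of the WNK family, Wnk1, spans chr6:119923969-120038672 on the minus strand (ENSMUSG00000045962.16, GRCm38). Its locus gives both the full-length kinase and a kidney-specific form that lacks most of the kinase domain, and the gene tables count them together. Vehicle mice ran from 239 to 361 CPM, with a median of 332, and SK-124 mice from 373 to 454 CPM, with a median of 415. All 6 SK-124 mice lay above every vehicle mouse, although the highest vehicle mouse and the lowest treated mouse were close. Wnk1 was 1.29-fold higher with SK-124 (log2 fold change 0.37, standard error 0.09, 95% interval 0.18 to 0.55, edgeR FDR 0.0047) and ranked 1753 by p. The upper quartile of the absolute log2 fold change over all genes tested was 0.30. Vehicle mouse 3 was far below the others, and without it the log2 fold change was 0.29 (edgeR FDR 0.0020). With SK-124 mice 1 to 3 left out it was 0.35 (edgeR FDR 0.0447), and with only these treated mice it was 0.39 (FDR 0.0255). The call was lost with library totals in place of TMM (log2 fold change 0.25, edgeR FDR 0.0722) and with limma on log2(TPM + 1) (0.26, FDR 0.148). Library totals also moved the median of all 14159 genes to -0.12. Measured from that median, Wnk1 was at 0.37 with library totals and also at 0.37 with TMM. A change of scaling shifts all genes by nearly the same amount, so this match follows from the scaling. It does not bear on the lost call.

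Wnk4 (ENSMUSG00000035112.17, chr11:101260567-101277409, plus strand, GRCm38), a kinase whose mutations cause familial hyperkalemic hypertension, moved the other way. Vehicle mice ran from 103 to 120 CPM, with a median of 113, while SK-124 mice ran from 63.0 to 88.5 CPM, with a median of 77.8. All 6 SK-124 mice lay below every vehicle mouse, with a clear gap between the groups. Wnk4 was at 0.681 of the vehicle level (log2 fold change -0.55, standard error 0.07, 95% interval -0.71 to -0.40, edgeR FDR 2.02e-05) and ranked 432 by p. It was called lower in all 23 alternative settings tried, at log2 fold changes from -0.69 to -0.50. With SK-124 mice 1 to 3 left out the log2 fold change was -0.59, and with only these treated mice it was -0.51.

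Because Wnk1 and Wnk4 moved apart, the ratio of their TPM values (transcript levels scaled per length and to a common total) was computed within each mouse. This ratio was chosen after the values of both genes were seen, so it carries no test. It was 1.67, 1.73, 1.02, 1.66, 2.01 and 2.23 in vehicle mice 1 to 6. It was 3.61, 3.63, 2.74, 3.17, 3.11 and 3.24 in SK-124 mice 1 to 6. The mean was 1.72 ± 0.410 (SD, n = 6) in vehicle and 3.25 ± 0.334 (SD, n = 6) in SK-124 mice, and the groups did not overlap. TPM is scaled by a transcript length estimated for each gene in each mouse. In vehicle mice its mean was 3129 bases for Wnk1 and 1942 bases for Wnk4. The longest annotated coding transcripts have 11330 and 4117 bases, so the ratio depends on how reads were shared among transcripts. In vehicle mouse 3, at a ratio of 1.02, the Wnk4 length was 1574 bases, the lowest of that group.

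The promoters of both called genes are shown because the groups were apart for them, and that of Oxsr1 because it alone of the 10 genes held a full cAMP response element, the motif bound by CREB, whose coactivators are SIK substrates. Each sequence runs from 250 bases before to 50 bases after the RefSeq start (GRCm38.p6), read 5′ to 3′ on the gene's strand: Wnk1 at chr6:120038606-120038905 on the minus strand, Wnk4 at chr11:101260317-101260616 on the plus strand and Oxsr1 at chr9:119322378-119322677 on the minus strand. Capitals mark the GC box (GGGCGG, bound by Sp1-type factors) on either strand and, in Oxsr1, the cAMP response element (TGACGTCA).
Wnk1: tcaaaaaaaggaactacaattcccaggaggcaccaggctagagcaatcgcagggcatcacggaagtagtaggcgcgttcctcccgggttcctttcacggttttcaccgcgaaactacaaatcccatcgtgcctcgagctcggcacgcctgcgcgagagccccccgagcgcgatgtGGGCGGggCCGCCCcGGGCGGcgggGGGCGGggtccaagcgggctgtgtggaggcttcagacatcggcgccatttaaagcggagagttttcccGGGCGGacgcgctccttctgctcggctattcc
Wnk4: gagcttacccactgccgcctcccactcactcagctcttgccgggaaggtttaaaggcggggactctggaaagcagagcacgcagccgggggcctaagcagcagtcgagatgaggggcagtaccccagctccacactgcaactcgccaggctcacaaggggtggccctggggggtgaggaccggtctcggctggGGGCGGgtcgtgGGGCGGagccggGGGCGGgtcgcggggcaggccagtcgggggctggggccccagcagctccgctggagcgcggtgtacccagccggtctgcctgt
Oxsr1: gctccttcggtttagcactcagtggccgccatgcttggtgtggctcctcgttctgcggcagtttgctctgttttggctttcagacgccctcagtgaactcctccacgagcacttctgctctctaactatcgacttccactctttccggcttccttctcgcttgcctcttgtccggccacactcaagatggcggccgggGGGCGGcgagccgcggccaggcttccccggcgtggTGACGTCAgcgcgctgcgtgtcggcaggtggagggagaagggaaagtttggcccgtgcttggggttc
All 10 genes had a promoter in the RefSeq table, where Pvalb has more than 1 start. The Wnk1 sequence is from the 5′ end of the gene. Which share of the Wnk1 counts came from transcripts that start there was not tested. On either strand, TGACGTCA stood in 1 of the 10 genes and in 1.79% of the 32851 promoters of the same length. The core of that element, TGACG, which the full element contains, stood in 3 of the 10 (Oxsr1, Cul3 and Klhl3) and in 20.8% of all. The GC box stood in 7 of the 10 and in 35.7% of all, with 5 matches in Wnk1, 3 in Wnk4 and 1 in Oxsr1. A glucocorticoid response element, searched by its name as a palindrome of hexamers with a spacer, stood in none of the 10 and in 0.475% of all. These are letter matches in a short window and say nothing of whether a factor was bound.

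The kinases between WNK and NCC did not pass the test. Stk39, which encodes SPAK (ENSMUSG00000027030.15, chr2:68210445-68472268, minus strand), ran from 21.0 to 27.7 CPM in vehicle mice, with a median of 24.1, and from 22.0 to 26.6 CPM in SK-124 mice, with a median of 23.9. The treated mice lay wholly within the vehicle range, and the log2 fold change was 0.02 (standard error 0.07, 95% interval -0.14 to 0.17, edgeR FDR 0.893). Oxsr1, which encodes OSR1 (ENSMUSG00000036737.12, chr9:119238432-119322427, minus strand), ran from 21.5 to 26.0 CPM in vehicle and from 21.8 to 27.7 CPM in SK-124 mice, with medians of 23.3 and 24.0. Only 2 treated mice were above every vehicle mouse, and the log2 fold change was 0.06 (standard error 0.07, 95% interval -0.09 to 0.21, edgeR FDR 0.573).

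The ubiquitin ligase that degrades WNK kinases did not pass the test in either subunit. Klhl3, the adaptor that binds the kinase (ENSMUSG00000014164.15, chr13:58000228-58113592, minus strand), ran from 29.5 to 33.3 CPM in vehicle mice, with a median of 31.7, and from 28.7 to 36.1 CPM in SK-124 mice, with a median of 34.3. Although 4 treated mice lay above every vehicle mouse, 1 lay below all of them. Its log2 fold change was 0.09 (standard error 0.06, 95% interval -0.04 to 0.22, edgeR FDR 0.338). Cul3, the scaffold (ENSMUSG00000004364.14, chr1:80264923-80340480, minus strand), ran from 71.8 to 82.8 CPM in vehicle and from 75.9 to 86.0 CPM in SK-124 mice, with medians of 80.9 and 82.0. It had the narrowest interval of the 10 genes, -0.06 to 0.16 around a log2 fold change of 0.05 (standard error 0.05, edgeR FDR 0.538).

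Among the other distal convoluted tubule genes, Trpm6 came nearest to a call. Trpm6 (ENSMUSG00000024727.9, chr19:18749983-18892511, plus strand), the magnesium channel, ran from 8.52 to 13.5 CPM in vehicle mice, with a median of 12.2, and from 7.50 to 11.6 CPM in SK-124 mice, with a median of 10.2. The ranges overlapped only because vehicle mouse 4, at 8.52 CPM, was lower than every other vehicle mouse. The log2 fold change was -0.27 (standard error 0.11, 95% interval -0.51 to -0.03), with an unadjusted p of 0.0324 and an edgeR FDR of 0.104. It passed the test without vehicle mouse 4 (log2 fold change -0.35, edgeR FDR 0.0184) and with library totals (-0.38, edgeR FDR 0.0239), and not in the other 21 alternative settings.

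Pvalb, the calcium buffer parvalbumin (ENSMUSG00000005716.16, chr15:78191114-78206400, minus strand), ran from 8.57 to 13.7 CPM in vehicle mice and from 9.11 to 11.9 CPM in SK-124 mice, with medians of 10.3 and 11.2. The treated mice lay within the vehicle range, and the log2 fold change was 0.04 (standard error 0.11, 95% interval -0.18 to 0.27, edgeR FDR 0.809). Parvalbumin is also abundant in fast skeletal muscle, whose markers were near 0 here: the 6 muscle markers summed to 0.190 to 0.642 CPM in vehicle and 0.174 to 0.451 CPM in SK-124 mice, and Ckm and Myh4 were at 0 in every mouse. Kcnj10, the Kir4.1 channel (ENSMUSG00000044708.5, chr1:172341210-172374085, plus strand), ran from 51.6 to 71.1 CPM in vehicle and from 53.9 to 68.6 CPM in SK-124 mice, with medians of 67.1 and 61.5. Its log2 fold change was -0.08 (standard error 0.08, 95% interval -0.25 to 0.08, edgeR FDR 0.471).

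**Figure D2:**
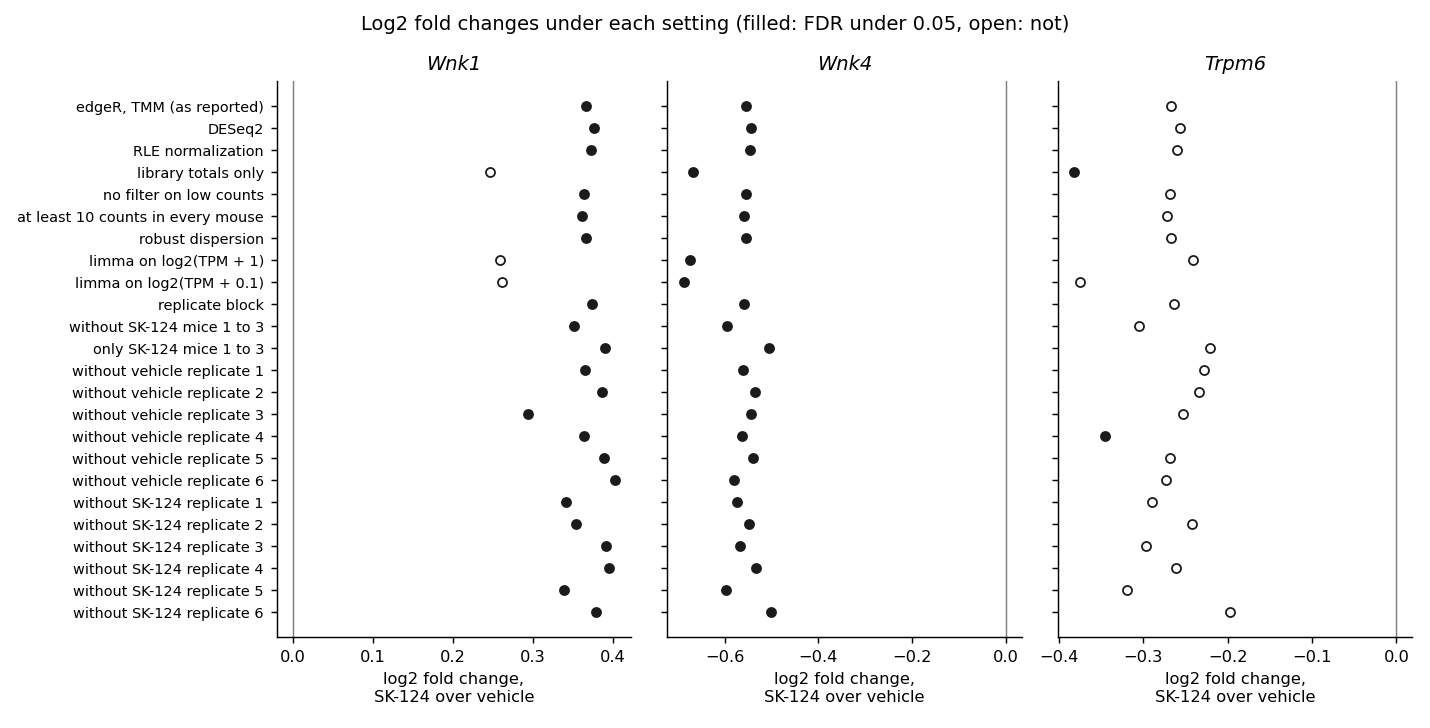
Log2 fold change of Wnk1, Wnk4 and Trpm6 (horizontal axes, SK-124 over vehicle) under edgeR with TMM and under the 23 alternative settings (vertical axis), filled where the FDR was under 0.05. Wnk4 is filled throughout, Wnk1 is open with library totals and with both TPM settings, and Trpm6 is filled with library totals and without vehicle mouse 4.

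Levels per length, which rest on the estimated transcript lengths, put the 10 genes in a wide order. In vehicle mice the mean TPM was 226 ± 33.4 (SD, n = 6) for Slc12a3, 102 ± 19.01 for Wnk1, 60.4 ± 7.06 for Wnk4 and 36.7 ± 3.73 for Cul3. It was then 14.4 ± 2.19 for Stk39, 12.5 ± 2.04 for Pvalb and 11.6 ± 1.76 for Kcnj10, and 5.03 ± 0.549 for Oxsr1, 4.30 ± 0.420 for Klhl3 and 1.75 ± 0.296 for Trpm6. Neighbours in this order had overlapping ranges for Stk39 and Pvalb, for Pvalb and Kcnj10, and for Oxsr1 and Klhl3, and the other neighbours were apart in all 6 vehicle mice. In SK-124 mice Wnk4 was at 37.7 ± 6.27 TPM and Cul3 at 35.1 ± 4.84 TPM (SD, n = 6), so these neighbours, apart in vehicle mice, came to similar levels. Wnk1 overlapped between the groups in TPM, at 73.6 to 123 in vehicle and 102 to 146 in SK-124 mice, unlike in TMM-normalized CPM.

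**Figure D3:**
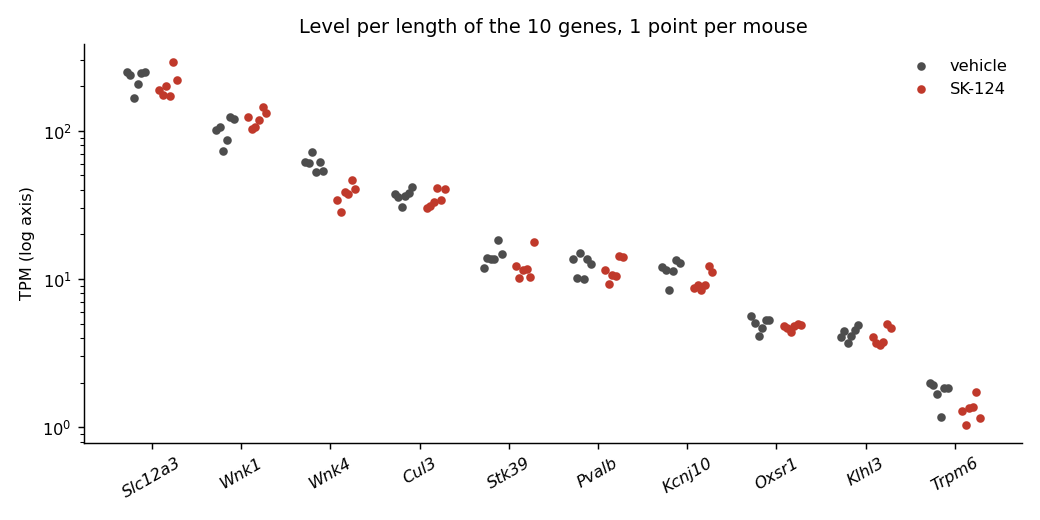
TPM (log axis) of the 10 genes in vehicle (grey) and SK-124 (red) mice, 1 point per mouse, ordered by the vehicle mean from Slc12a3 at 226 TPM to Trpm6 at 1.75 TPM. The red points of Wnk4 lie below its grey points and near those of Cul3.

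The tables also give a length for each gene in each mouse, the mean transcript length weighted by transcript abundance, which moves when the mix of isoforms does. It varied in 9 of the 10 genes and was the same in every mouse for Kcnj10. In none of the 9 did it differ between the groups after adjustment, and 1 had an unadjusted p under 0.05 (two-sided exact permutation test over 6 against 6 mice). That gene was Trpm6, at 6509.0 bases in all vehicle mice and down to 6187 bases in SK-124 mice, with 5 of 6 treated mice below the vehicle value (exact permutation p = 0.0152, adjusted p = 0.136). With SK-124 mouse 3 left out the adjusted p for Trpm6 was 0.0195, on a mean difference of -101 bases. The mean difference was -83.8 bases over all mice and -36.1 bases without SK-124 mouse 6 (adjusted exact permutation p = 0.136), from libraries that held only 148 to 274 Trpm6 counts. With vehicle mouse 3 left out the length of Slc12a3 differed by 30.8 bases (exact permutation, adjusted p = 0.0390), against a mean of 3070 ± 37.1 bases (SD, n = 6) in vehicle mice. For Wnk1 the mean length was 3129 ± 166 bases in vehicle and 3047 ± 116 bases in SK-124 mice (SD, n = 6), with an adjusted exact permutation p of 0.647.

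The genes whose level followed Slc12a3 most closely across the 12 mice, after the mean of each group was removed from log2 CPM, were Tm9sf2 (Pearson r 0.91, Spearman rho 0.66), AI597479 (r 0.91, rho 0.71), Sptlc2 (r 0.90, rho 0.54), Nceh1 (r 0.90, rho 0.64) and Oxct1 (r 0.90, rho 0.85). Without SK-124 mice 4 and 5, which lay farthest from the median of Slc12a3, these r values were 0.82, 0.85, 0.73, 0.78 and 0.76. Among the other 9 genes r ran from -0.26 (Stk39) to 0.77 (Kcnj10), with Wnk1 at 0.70 and Klhl3 at 0.64. Their order rested on SK-124 mice 4 and 5: without these mice r was highest for Wnk1 at 0.76, Cul3 at 0.75 and Kcnj10 at 0.70, and lowest for Pvalb at -0.57. Leaving them out lowered r from 0.64 to 0.17 for Klhl3 and from 0.45 to 0.08 for Wnk4, and raised it from 0.06 to 0.75 for Cul3 and from 0.10 to 0.55 for Oxsr1. For Pvalb it turned from 0.04 to -0.57. These are descriptions over 12 libraries, which share their composition and their sources of error.

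The wider network was described through 4 lists of genes that are not among the 10, with 51 genes in all, of which 49 were tested. In these lists 6 genes were higher and 12 were lower, with a median log2 fold change of -0.01. Over all 14159 genes tested, 10.8% were higher and 13.5% lower, and these shares apply beside each list and marker count below. The lists were chosen with earlier results of these data known, so the counts do not measure enrichment. Of the 18 calls, 11 held in all 23 alternative settings, among them those of Sgk1, Nedd4l, Slc12a7, Bsnd, Emx1, Nr3c1, Nr3c2, Hsd11b2, Avpr2 and Casr.

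**Figure D4:**
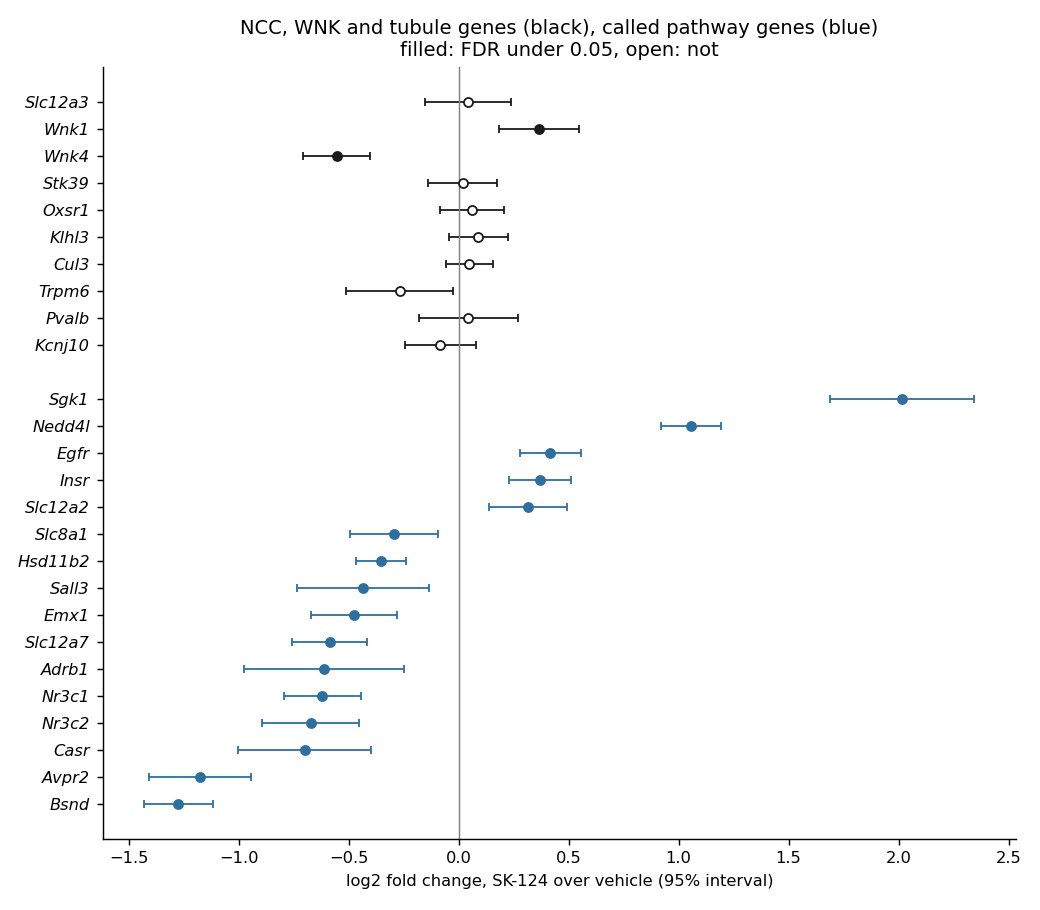
Log2 fold change (horizontal axis, SK-124 over vehicle, with 95% intervals) of the 10 genes in black and of 16 of the 18 called genes of the 4 lists in blue, filled where the FDR was under 0.05. Wnk1 and Wnk4 are the filled black points at 0.37 and -0.55, and Sgk1, at 2.02, lies farthest to the right.

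Of the 17 other components and targets of WNK and SPAK signalling, 16 were tested, 3 were higher and 1 was lower, with a median log2 fold change of 0.06. Sgk1, the aldosterone-responsive kinase that phosphorylates NEDD4-2, ran from 14.7 to 31.3 CPM in vehicle and from 81.2 to 116 CPM in SK-124 mice, a 4.05-fold difference (log2 fold change 2.02, standard error 0.15, edgeR FDR 4.86e-08). Nedd4l, which encodes the ubiquitin ligase NEDD4-2 that lowers the surface level of NCC and the sodium channel ENaC, ran from 62.5 to 82.4 CPM in vehicle and from 139 to 162 CPM in SK-124 mice (2.08-fold, log2 fold change 1.06, standard error 0.06, edgeR FDR 2.48e-09). The groups did not overlap for either gene, and the kinase and the ligase it inhibits rose together. Slc12a7, the potassium chloride cotransporter KCC4, fell from 87.2 ± 6.88 to 58.1 ± 7.72 CPM (SD, n = 6, log2 fold change -0.59, edgeR FDR 3.86e-05). Slc12a2, the NaCl-K cotransporter NKCC1, was higher (log2 fold change 0.32, edgeR FDR 0.0099), a call that 5 alternative settings did not give, among them those without SK-124 mice 1 to 3 (edgeR FDR 0.0700) and with only these treated mice (edgeR FDR 0.0559).

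Not called in this list were Slc12a1, the NKCC2 cotransporter of the thick ascending limb and the closest relative of NCC here (log2 fold change 0.16, edgeR FDR 0.211), the SPAK cofactors Cab39 (-0.02) and Cab39l (-0.06), and Klhl2, a relative of Klhl3 that also binds WNK kinases (0.20, edgeR FDR 0.058). Klhl2 was called higher in 4 alternative settings: with a replicate block (edgeR FDR 0.0340), without SK-124 mice 1 to 3 (0.0397), without vehicle mouse 4 (0.0334) and without SK-124 mouse 1 (0.0165). Over all 23 alternative settings of edgeR, DESeq2 and limma its log2 fold change ran from 0.033 to 0.271, with an FDR of up to 0.86. Wnk2 was at a log2 fold change of -0.20 (edgeR FDR 0.424), and Wnk3 was below the filter, at 0.287 CPM in vehicle mice. Wnk1 and Wnk4 were thus the 2 called genes among the 3 WNK kinases tested.

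Of the 17 basolateral transport and magnesium genes, 16 were tested, 2 were higher and 2 were lower, with a median log2 fold change of 0.11. Bsnd, which encodes the accessory protein barttin, fell from 58.3 ± 3.14 to 24.1 ± 3.06 CPM (SD, n = 6, log2 fold change -1.27, standard error 0.07, edgeR FDR 1.21e-09). Egfr, the receptor for the EGF that stimulates TRPM6, was higher (log2 fold change 0.42, edgeR FDR 0.000153), a call lost in the 2 settings with TPM. Kcnj16, which forms the basolateral channel with Kir4.1, missed the threshold (0.18, edgeR FDR 0.052) beside Kcnj10 at -0.08. It was called higher in 5 alternative settings, with DESeq2 (FDR 0.0256), RLE normalization (edgeR FDR 0.0465), a replicate block (0.0474), only SK-124 mice 1 to 3 (0.0196) and without SK-124 mouse 4 (0.0278). Over all 23 alternative settings of edgeR, DESeq2 and limma its log2 fold change ran from 0.019 to 0.267, with an FDR of up to 0.90. DESeq2 called 4 genes of this list higher, against 2 with edgeR.

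Receptors and steroid handling genes that act on the segment were the list with most calls. All 9 were tested, 1 was higher and 6 were lower, beside 10.8% higher and 13.5% lower of all genes tested. Their median log2 fold change was -0.61. Like the other lists, this one was chosen with earlier results of these data known. Nr3c2, the mineralocorticoid receptor, ran from 9.09 to 13.5 CPM in vehicle and from 6.33 to 8.47 CPM in SK-124 mice, without overlap (log2 fold change -0.67, standard error 0.10, edgeR FDR 0.000127). Nr3c1, the glucocorticoid receptor, fell from 60.1 ± 5.22 to 39.2 ± 5.17 CPM (SD, n = 6, log2 fold change -0.62, edgeR FDR 2.98e-05). Hsd11b2, which inactivates glucocorticoids and so keeps the mineralocorticoid receptor free for aldosterone, was lower by a smaller step without overlap (log2 fold change -0.35, edgeR FDR 9.99e-05). Sgk1, a known target of both receptors, rose while both receptor transcripts fell.

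Casr, the calcium-sensing receptor, fell from a median of 50.6 to 29.1 CPM (log2 fold change -0.70, edgeR FDR 0.0016), with overlap through vehicle mouse 3 at 25.7 CPM. Avpr2, the vasopressin V2 receptor, was at a log2 fold change of -1.17 (edgeR FDR 4.96e-07). Its locus overlaps L1cam and Arhgap4 on the opposite strand, at means of 38.3 and 4.30 CPM over the mice of both groups. Avpr2 itself averaged 8.62 CPM in vehicle mice alone. The use of strand in counting is not given in the sources used here, so the value for Avpr2 is uncertain. Adrb1, the beta-1 adrenergic receptor, was at -0.61 (edgeR FDR 0.0153) on only 18 to 48 counts per mouse, and its call was lost with SK-124 mice 1 to 3 left out and with only those treated mice. Insr, the insulin receptor, was the gene of this list that was higher (0.37, edgeR FDR 0.000533), a call lost with both TPM settings. Pth1r, the parathyroid hormone receptor, was at -0.12 (edgeR FDR 0.168).

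**Figure D5:**
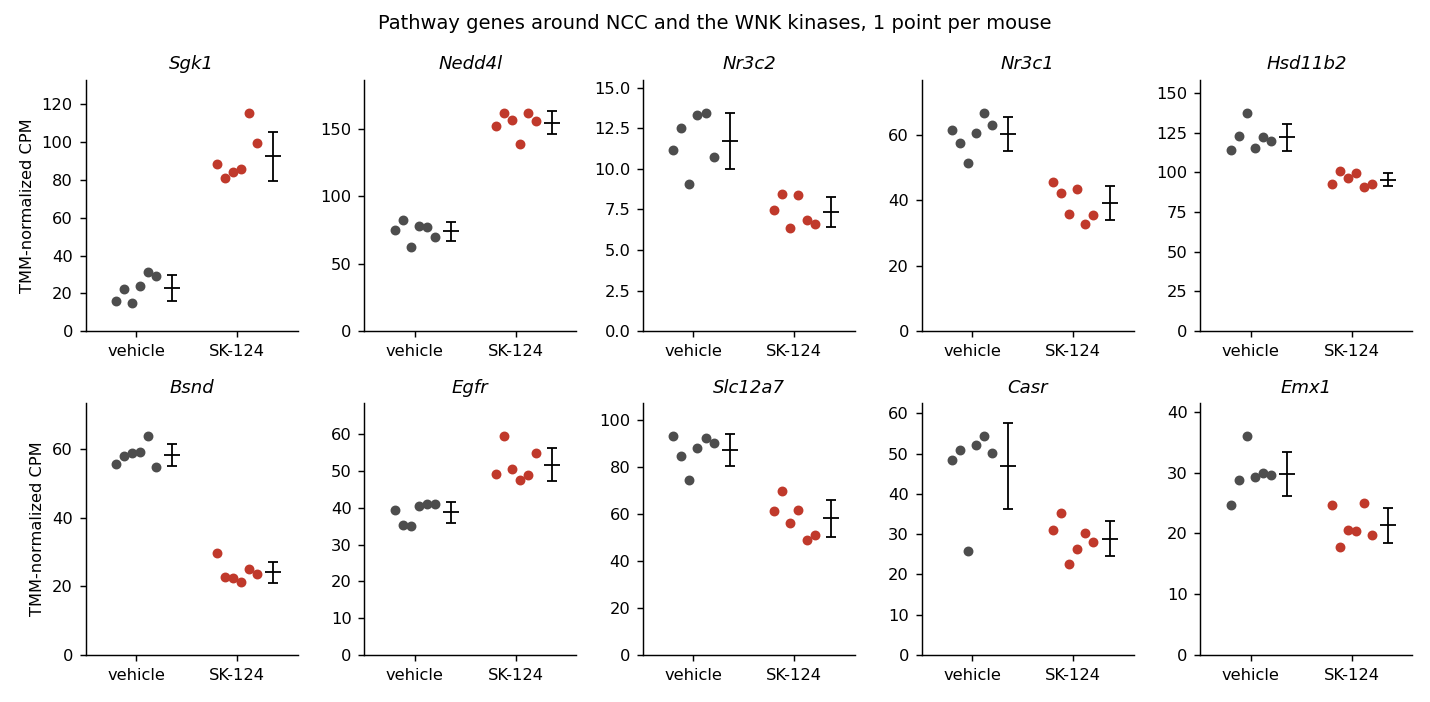
TMM-normalized CPM of 10 of the genes called around NCC (vertical axes start at 0 and differ between panels) in vehicle (grey) and SK-124 (red) mice, 1 point per mouse, with the mean and SD beside each group. Sgk1 and Nedd4l are higher in every SK-124 mouse, and vehicle mouse 3 lies among the SK-124 values for Casr.

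Other markers of the distal convoluted tubule and the connecting segment were compared as a check on the segment itself. All 8 were tested, 0 were higher and 3 were lower in the edgeR test, with a median log2 fold change of -0.11. At an unadjusted p under 0.05, and with DESeq2 or limma, the number higher was also 0. Emx1, a transcription factor of these cells, fell from 29.7 ± 3.62 to 21.4 ± 2.88 CPM (SD, n = 6, log2 fold change -0.47, edgeR FDR 0.0011), with 5 of 6 treated mice below every vehicle mouse. Sall3, another transcription factor, was at -0.43 (edgeR FDR 0.0339), and Slc8a1, the sodium calcium exchanger, at -0.29 (edgeR FDR 0.0314), but both calls were unstable. The call for Sall3 was lost when vehicle mouse 1, 4, 5 or 6 or SK-124 mouse 2, 3, 4 or 6 was left out (edgeR FDR up to 0.0824). That for Slc8a1 was lost without vehicle mouse 1, 2 or 6 or SK-124 mouse 3 or 6 (edgeR FDR up to 0.0768). Both calls were also lost without SK-124 mice 1 to 3 (edgeR FDR 0.0710 for Sall3 and 0.0744 for Slc8a1) and with only these treated mice (0.187 and 0.0812). Tmem52b was at -0.01, Calb1 at 0.11, Trpv5 at -0.08 and S100g at 0.09, none of them called. Kl was not called either, at log2 fold changes from -0.288 to -0.087 over the 23 alternative settings. The summed level of the 8 markers ran from 1252 to 1486 CPM in vehicle and from 1099 to 1535 CPM in SK-124 mice, and it overlapped, as did Slc12a3 and Pvalb.

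Markers of neighbouring segments were mostly not called. Of 5 thick ascending limb markers 1 was higher (Cldn16, log2 fold change 0.50), with a summed level of 2454 to 3399 CPM in vehicle and 2954 to 3602 CPM in SK-124 mice. Of 5 principal cell markers 1 was higher (Aqp2, 0.75), with sums of 204 to 287 CPM and 234 to 381 CPM. Of 6 intercalated cell markers 2 were higher and 1 was lower (Slc26a4 0.27, Foxi1 0.33 and Slc4a1 -0.59), with sums of 184 to 203 CPM and 179 to 223 CPM, and the sums of 6 proximal tubule markers were 7155 to 8145 CPM and 6700 to 8578 CPM. In vehicle mice Umod averaged 1995 CPM and Slc34a1 4749 CPM, so the thick ascending limb and proximal tubule sums mostly follow these genes. Of the proximal tubule markers 0 were called by edgeR or DESeq2, and 0 had an unadjusted p under 0.05 in edgeR. With limma on log2(TPM + 1) 1 was called lower. Of 4 podocyte markers 1 was higher, of 5 endothelial markers 1 was lower, and of 3 immune markers tested 0 were called by edgeR, DESeq2 or limma, 1 of them lower at an unadjusted edgeR p under 0.05. With limma on log2(TPM + 1), where the median of all genes was -0.11, thick ascending limb markers went to 0 higher and 2 lower, intercalated cell markers to 0 higher and 1 lower, and podocyte markers to 0 higher and 1 lower, while principal cell and endothelial markers kept their counts. Wnk1, Wnk4, Kcnj10 and most genes of the 4 lists are also expressed outside the distal convoluted tubule, and the part of these cells in their values was not tested.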

How the data were processed

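Whole-kidney RNA of 12 mice, 6 per group, was sequenced on a BGISEQ500 instrument, 1 library per mouse. Per the submitters' processing notes, the tools were FastQC, STAR 2.7.2b, RSEM 1.3.0 and DESeq2 with mm10; the annotation release and the use of strand are not given in the sources used here. The authors deposited RSEM expected counts, estimates of the reads from each gene that carry no normalization. The deposited TPM values were scaled by RSEM for effective length and to 1 common sum. The deposited gene lengths are means weighted by transcript abundance.

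Gene identifiers were matched to GENCODE M21 (GRCm38, the same build as mm10), and all 10 genes matched with their version. Expected counts were rounded, filtered with filterByExpr, scaled with TMM and tested with the quasi-likelihood test of edgeR 4.0.16 (R 4.3.3) without a replicate block. Standard errors are the log2 fold change over the square root of F, and the FDR is adjusted over all 14159 genes. Lengths were compared with exact permutation tests. Alternatives used DESeq2 1.42.0, limma 3.58.1 on log2(TPM + 1) and log2(TPM + 0.1), other scalings and filters, and each mouse left out. The code was tested on simulated data. The 10 genes, the lists and the rule for genes named (the 10, and each list gene with an FDR under 0.05) were chosen with earlier results of these data known; list genes that were not called and cell type markers are named as context. No pair of libraries in a group was a duplicate within sampling noise (smallest chi-square per degree of freedom 4.69 over 30 pairs). Overlapping genes of the 10 held at most 0.522 CPM. The RSEM posterior SD of the count was 0 in all mice for 9 of the 10 genes and at most 0.03 for Slc12a3. The intervals given with log2 fold changes rest on the standard errors of the quasi-likelihood test, which include the spread between mice. Some genes of the 4 lists entered the counts and are not reported here by name.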

Additional observations from a re-analysis of the deposited data

Results flagged for a closer look

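Within each group of 6 mice, 56 sets of values (the 10 genes and the called list genes) were screened for a mouse set apart from its group, by Dixon's test at its 95% limit, which marks about 1 set in 20 by chance, or 2.8 here. It marked 5, of which 4 were in vehicle mouse 3. In that mouse Wnk1 was lowest at 239 CPM, with the next vehicle mouse at 318 CPM. Kcnj10 was lowest at 51.6 CPM (next 65.8), Casr was lowest at 25.7 CPM (next 48.3), and Hsd11b2 was highest at 138 CPM (next 123). The fifth was Trpm6 in vehicle mouse 4, lowest at 8.52 CPM (next 11.7). The calls for Wnk1, Casr and Hsd11b2 held with vehicle mouse 3 left out.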

How the results depend on the processing

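Of the 10 genes, 1 to 3 were called over the 23 alternative settings, beside 2 as reported: 1 with limma on log2(TPM + 1), 1 with limma on log2(TPM + 0.1), and 2 to 3 with 1 mouse left out. The list genes called numbered 14 to 20, beside 18. Wnk4 held its call throughout, and the log2 fold change of Wnk1 stayed between 0.25 and 0.40, without a call with library totals (FDR 0.0722) or with TPM at pseudocount 1 (FDR 0.148) or 0.1 (FDR 0.146). These scalings moved the median of all genes to -0.12 with library totals, -0.11 with TPM + 1 and -0.14 with TPM + 0.1, and the calls over all genes from 1536 higher and 1917 lower to 777 and 3058, 500 and 2130, and 498 and 2118. In that same order of settings, values that were not called turned negative for Slc12a3 (-0.075, -0.127, -0.127), Stk39 (-0.091, -0.222, -0.238), Oxsr1 (-0.059, -0.062, -0.072), Klhl3 (-0.026, -0.053, -0.065), Cul3 (-0.067, -0.068, -0.070) and Pvalb (-0.066, -0.085, -0.091). Oxsr1 was at -0.045 without SK-124 mice 1 to 3, and Stk39 at -0.058 with only these treated mice. With 1 mouse left out, Slc12a3 ran from -0.031 to 0.105, Stk39 from -0.019 to 0.062 and Pvalb from -0.0081 to 0.133. Of the lengths, 0 to 1 passed with 1 mouse left out, beside 0. Replicate numbers mark different mice, and deviations from the group means correlated at -0.13 to 0.22 between mice of the same number. A number matched itself best in 2 of 6 cases. These low correlations gave no clear sign of pairing, but they cannot show that mice of the same number had nothing else in common. A replicate block gave 1573 higher and 1893 lower genes, 2 of the 10 genes called, and Wnk1 at 0.37 and Wnk4 at -0.56. The 95% intervals of the 8 genes not called spanned -0.51 (Trpm6) to 0.27 (Pvalb) at their outer bounds. Differences within a gene's own interval are compatible with its values in 6 mice per group. The lack of a call therefore does not show that a gene was unchanged.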
